A study of Homo sapiens with 8 samples.

Results

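The 10 genes described here encode enzymes that build serine, carry its carbon unit through the folate cycle and make asparagine, namely PHGDH, PSAT1, PSPH, SHMT1, SHMT2, MTHFD2, MTHFD1L, ALDH1L2, ASNS and PCK2. They were chosen by gene symbol, with earlier results of these data known, and all 10 were among the 17467 genes present in all 3 deposited expression tables. Cells make serine from a glycolytic intermediate in a short series of steps run by PHGDH, PSAT1 and PSPH. The SHMT enzymes then split serine into glycine and a carbon unit carried on folate, which the mitochondrial enzymes MTHFD2, MTHFD1L and ALDH1L2 oxidise and release, and which the cell uses for nucleotide synthesis. ASNS makes asparagine from aspartate and glutamine, and PCK2, the mitochondrial phosphoenolpyruvate carboxykinase, feeds carbon from the citric acid cycle back toward glycolytic intermediates. Many of these genes are textbook targets of ATF4, the transcription factor of the integrated stress response, which binds composite sites with C/EBP partners. Proliferating lymphoid cells are known to draw on both serine synthesis and mitochondrial folate metabolism.

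The cells were SUDHL6, an established human diffuse large B-cell lymphoma line. Bulk RNA of all groups was sequenced from this 1 line, exposed for 18 h to DMSO, the vehicle, or to 2.5 µM of a compound, with 2 libraries per group. The compounds were MS8815, labelled as a PROTAC (a molecule that brings a ubiquitin ligase to its target for degradation) directed at the histone H3K27 methyltransferase EZH2; EPZ-6438 (tazemetostat), labelled as the matched inhibitor of the enzyme's catalytic domain; and MS8815N, labelled as an analog of MS8815 that is not a PROTAC and serves as its control. Whether duplicates came from separate cultures is not stated, so the spread behind each p-value may be technical only.

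Estimated depth was about 26100000 to 34100000 reads in the DMSO, EPZ-6438 and MS8815N libraries, and 13000000 and 14600000 reads in the MS8815 libraries. Replicates of MS8815 differed by a median of 0.11 on the log2 scale over the more abundant genes, against 0.06 in the other 3 groups. B-cell markers were present in all libraries, and 18 of 21 fell with MS8815 and 1 rose, so that their summed level was 69742 and 70258 normalised counts against 140290 to 141658 in DMSO. Of 12 markers of adherent cells, 9 rose with MS8815 and none fell, their summed level being 10290.4 to 10580.2 against 589.8 to 691.4. Of 4 T and NK cell markers 1 rose, and of 5 myeloid markers 3 rose and none fell. These marker counts stand beside 24.5% of all 18744 genes that limma called higher with MS8815 and 22.4% called lower. With MS8815N and with EPZ-6438 limma called none of the 21 B-cell, 10 adherent, 3 T and NK or 5 myeloid markers tested, where 7, 4, 0 and 0 of them with MS8815N and 6, 2, 0 and 1 with EPZ-6438 had an unadjusted p under 0.05. Such a p-value was seen for 2894 of all 18398 genes with MS8815N and 3076 of all 18320 with EPZ-6438. In bulk RNA, fewer cells of a type and less RNA per cell cannot be told apart.

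Promoter sequence shows where the known ATF4 composite element stands in these genes, and so is shown for the members that carry it. RefSeq promoter windows (GRCh38.p14, 250 bases before to 50 after a start) were at hand for 7 of the 10 genes. The element, spelled TGATGNAAN and searched on both strands, was in 3.61% of all 35116 promoter windows. It was in 4 of the members' 11 windows, from 2 members, ASNS and MTHFD1L, where overlapping MTHFD1L windows held the same copy. In ASNS it stood 68 bases before a start, at chr7:97872458-97872486 (minus strand) in its printed window, and in MTHFD1L 90 bases before one start, 129 before another and 25 into the window after a further one, at chr6:150866347-150866375 (plus strand). The capitals mark the element.
ASNS: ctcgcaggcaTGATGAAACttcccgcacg
MTHFD1L: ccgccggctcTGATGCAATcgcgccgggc

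The CCAAT box, searched on both strands and sharing no base with the element above in these windows, was in 34.6% of all windows. It was in 8 of the members' 11 windows, where overlapping MTHFD1L windows held the same copy. By gene it was in 6 of the 7 members with a window, the exception being ASNS. PSAT1, which had one of the smallest p-values of all genes with MS8815N, held 3 copies, starting 113, 83 and 52 bases before its start. SHMT1 and MTHFD2, which limma did not call with MS8815N, held 2 copies each. The 150 bases before the PSAT1 start, chr9:78296975-78297124 (plus strand), are printed because the copies lie so close together. The single copy of PCK2, the member with the largest called rise with MS8815N, follows, at chr14:24094106-24094134 (plus strand). Capitals mark CCAAT.
PSAT1: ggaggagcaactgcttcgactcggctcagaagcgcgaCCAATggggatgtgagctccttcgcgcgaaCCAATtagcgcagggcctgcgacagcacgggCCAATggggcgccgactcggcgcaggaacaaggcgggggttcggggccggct
PCK2: ggacccagtcctCCAATgggagagatggg
The E-box CACGTG, searched the same way, was in 7.26% of all windows and in 3 of the members' 11. All 3 belong to 1 member, MTHFD1L, overlap and hold the same copy. These matches describe letters in a window, and nothing about binding was measured.

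In DMSO the members covered a wide range of levels, given here as normalised counts per kilobase of the longest coding transcript (GENCODE 29). SHMT2 was highest at 5424 and 5117 in the DMSO libraries, and PSAT1 followed at 2532 and 2596. ASNS had 1790.2 and 1925, MTHFD2 1410.5 and 1339, and MTHFD1L 1001 and 1006. PSPH (725 and 857), SHMT1 (787 and 764) and PHGDH (825 and 703) overlapped and had no order beyond their spread. PCK2 was lower, at 367 and 350.4, and ALDH1L2 was nearly absent, with 0 and 1.23. The mitochondrial serine hydroxymethyltransferase was thus the most abundant of these messages and the mitochondrial formyl-folate dehydrogenase the least.

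**Figure D1:**
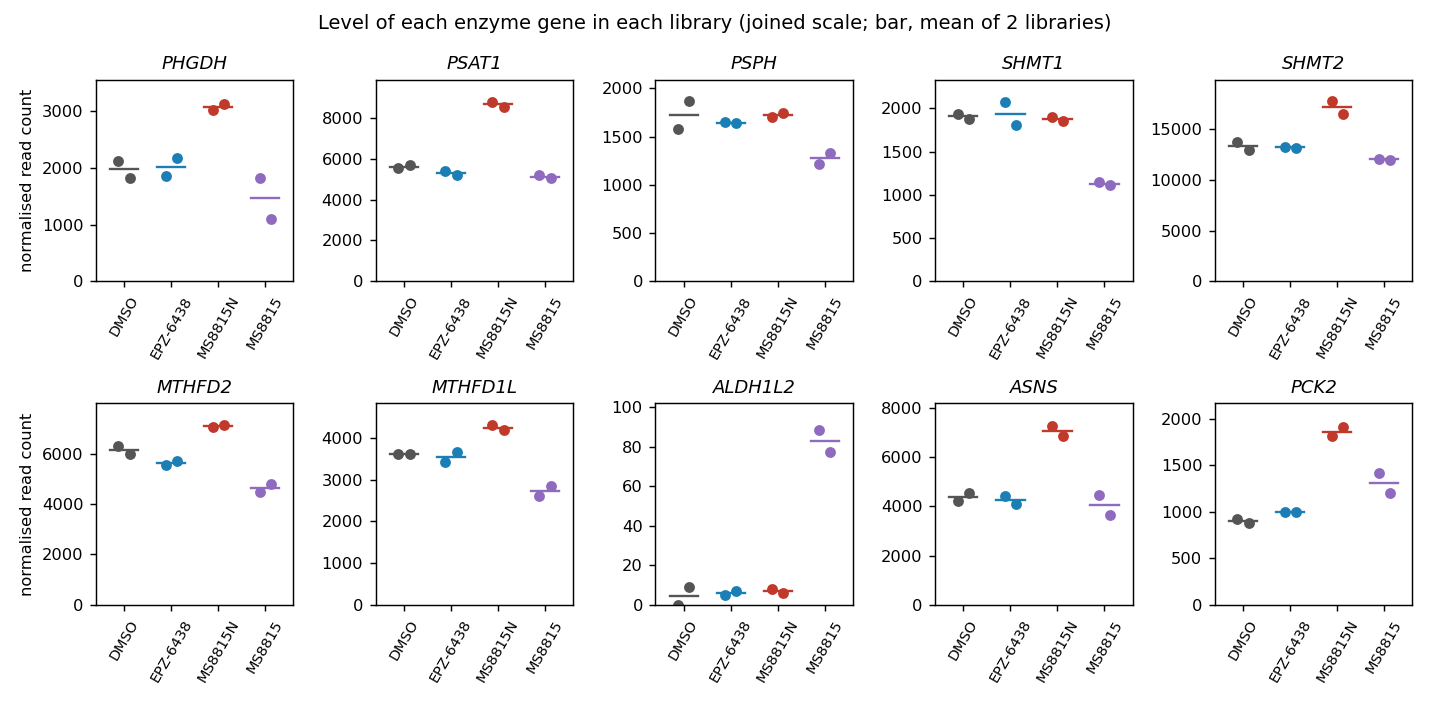
Normalised read counts (y axis, from 0) of the 10 enzyme genes in the 2 libraries of each group (points) with the mean of the 2 (bars), on the scale that joins the 3 tables. PSAT1, ASNS and PCK2 stood highest in the MS8815N libraries, and SHMT1 and MTHFD2 lowest in the MS8815 libraries.

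The first comparison asked what MS8815N, the control analog, did to these genes. Of the 10 members 5 rose (PCK2, ASNS, PHGDH, PSAT1 and SHMT2) and none fell by limma at an adjusted p under 0.05, where 0.533% of all 18398 genes were called and 0.288% were called higher. The libraries of both groups did not overlap for 7 members, all higher with MS8815N, where 23.5% of all genes were so placed. The members' median log2 fold change was 0.49, beside 0.00 over all genes, and their summed level was 51922 and 53640.4 normalised counts against 39242 to 39982 in DMSO. By p-value PSAT1 ranked 3, PCK2 5, ASNS 13, PHGDH 46 and SHMT2 56 among all genes. Beside this, 9 of 10 adherent-cell markers had a log2 fold change above 0 with MS8815N, with a median of 0.48 and a summed level of 1358 to 1459.9 normalised counts against 925 to 1086 in DMSO, although none passed the test, and their part in the members' rise was not tested. With EPZ-6438 the same list had 8 of 10 above 0, a median of 0.33 and 1117 to 1283 against 879 to 1036. Of all called genes 54.1% were higher as deposited, 67.2% with quantile normalisation and 77.1% with libraries scaled to B-cell markers. Under both of these scalings 7 members were called, all higher, where 78 and 74 of all 18398 genes were called higher.

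Serine synthesis starts with PHGDH (chr1:119648411-119744226, plus strand), which oxidises 3-phosphoglycerate. It had 3018 and 3135 normalised counts with MS8815N and 2133 and 1817 in DMSO. The groups did not overlap, and the log2 fold change was 0.64 ± 0.08 (SE, n = 2 per group; limma adjusted p = 0.0284). PSAT1 (chr9:78297143-78330093, plus strand), the transaminase of the next step, had 8798 and 8549 against 5540.2 and 5679. It rose by a log2 fold change of 0.63 ± 0.03 (limma adjusted p = 0.0029), and its replicates lay closer together than those of PHGDH. PSPH (chr7:56011051-56051604, minus strand), the phosphatase that releases serine, had 1703 and 1743 with MS8815N, between the DMSO libraries at 1579 and 1866. Its log2 fold change was 0.01 ± 0.08 (limma adjusted p = 0.991), with a 95% interval of -0.19 to 0.20. The ratio of PSAT1 to PSPH counts was 5.17 and 4.90 with MS8815N and 3.51 and 3.04 in DMSO, so the pathway's second and last genes did not change in proportion.

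The next step splits serine, in mitochondria by SHMT2 (chr12:57229327-57234935, plus strand) and in the cytosol by SHMT1 (chr17:18327860-18363563, minus strand). SHMT2 had 17802 and 16544 normalised counts with MS8815N against 13761 and 12982 in DMSO, a log2 fold change of 0.36 ± 0.04 (limma adjusted p = 0.0329). SHMT1 had 1899 and 1854 against 1940.3 and 1883, with overlapping groups and a log2 fold change of -0.03 ± 0.05 (limma adjusted p = 0.855). The mitochondrial gene rose, and the interval for the cytosolic gene ran from -0.15 to 0.10 on the log2 scale.

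The mitochondrial folate enzymes moved less. MTHFD2 (chr2:74198562-74217565, plus strand), the dehydrogenase and cyclohydrolase, had 7039 and 7130.4 normalised counts with MS8815N and 6285 and 5968 in DMSO. MTHFD1L (chr6:150865549-151101887, plus strand), the formate-releasing synthetase, had 4305 and 4197 against 3606 and 3626. Both stood above both DMSO libraries, and neither passed the test, with log2 fold changes of 0.21 ± 0.04 (limma adjusted p = 0.0703) and 0.23 ± 0.04 (limma adjusted p = 0.0637). ALDH1L2 (chr12:105019784-105084577, minus strand), which oxidises 10-formyl-folate, had 7.83 and 6.25 against 0 and 9.28, so its counts were few and the groups overlapped. Over a whole library 1 read was worth 0.922 to 1.04. That value is a rough guide for any single gene, since constants per gene also separate the tables.

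ASNS and PCK2 were the members with the largest log2 fold changes among those called. ASNS (chr7:97852118-97872542, minus strand) had 7257 and 6845 normalised counts with MS8815N against 4218 and 4535 in DMSO, a log2 fold change of 0.69 ± 0.05 (limma adjusted p = 0.0044). PCK2 (chr14:24094053-24110598, plus strand) had 1812 and 1918 against 919.6 and 878, a log2 fold change of 1.05 ± 0.06 (limma adjusted p = 0.0041). Neither gene's groups overlapped, and the PCK2 message was 2.07-fold higher.

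**Figure D2:**
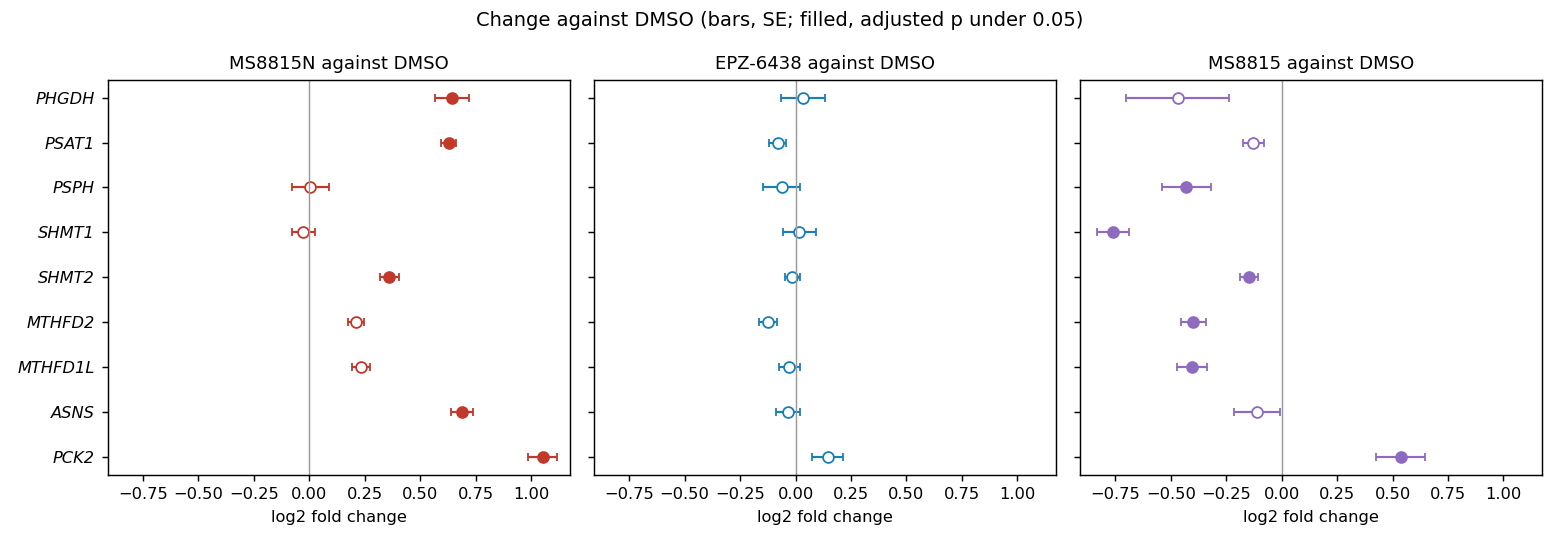
Log2 fold changes (x axis) of 9 enzyme genes for each compound against the same 2 DMSO libraries, with SE bars and filled points at a limma adjusted p under 0.05; ALDH1L2 is left out because its counts are few. With MS8815N 5 genes lie above 0 with filled points, with EPZ-6438 no point is filled, and with MS8815 PCK2 alone of the 9 is filled above 0.

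Size and direction held better than the calls when libraries were left out. Over the 4 fits without 1 library each, the log2 fold change with MS8815N stayed at 1.01 to 1.09 for PCK2, 0.64 to 0.74 for ASNS, 0.53 to 0.76 for PHGDH, 0.61 to 0.65 for PSAT1 and 0.31 to 0.41 for SHMT2. Those fits called 1 member without DMSO replicate 2 (PSAT1, limma adjusted p = 0.0481) and 0 without DMSO replicate 1 or either MS8815N library, with 1 residual degree of freedom each.

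Genes beside the members were read from lists of the same and nearby pathways. Of 25 genes of the integrated stress response outside the 10 members, 6 rose with MS8815N, where 0.288% of all 18398 genes were called higher. The list's median log2 fold change was 0.23, with none called lower. ATF5, an ATF4-related transcription factor, had 14323 and 14191 normalised counts against 7321 and 7345 in DMSO, a log2 fold change of 0.96 ± 0.03 (limma adjusted p = 0.000119). EIF4EBP1, a repressor of cap-dependent translation, rose by 0.54 ± 0.05 on the log2 scale. The transcription factor gene CEBPB rose by 0.53 ± 0.07, just under the threshold (limma adjusted p = 0.04997). TRIB3, a pseudokinase induced by this response, rose by 0.39 (limma adjusted p = 0.0426). Both chains of a large neutral amino acid transporter rose, SLC3A2 by 0.29 and SLC7A5 by 0.25. ATF4 itself, named here after its values were seen, had 12593 and 12756 against 11630.2 and 12073, a log2 fold change of 0.10 ± 0.03 that did not pass the test (limma adjusted p = 0.182).

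Other genes of folate and amino acid synthesis did not move this way as a list. Of 21 other folate genes, limma called none with MS8815N, where it called 0.533% of all 18398 genes, and the list median was -0.08. An unadjusted p under 0.05 was seen for 9 of the 21, and for 2894 of all genes. TYMS, thymidylate synthase, had a log2 fold change of -0.03, and MTHFD1, the cytosolic counterpart of the mitochondrial MTHFD enzymes, had -0.00 ± 0.07. Of 23 other genes of non-essential amino acid synthesis 1 was called, PYCR1, the mitochondrial enzyme of the last step of proline synthesis, at 1715 and 1652 normalised counts against 1047.5 and 1068 (log2 fold change 0.67 ± 0.06; limma adjusted p = 0.0105). Limma called none of 5 genes of a list on MYC and related regulators, 1 having an unadjusted p under 0.05.

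The second comparison set EPZ-6438, the catalytic inhibitor, against the same DMSO libraries. Limma called none of the 10 members, where 0.0328% of all 18320 genes were called, and 1 member, MTHFD2, had an unadjusted p under 0.05. Of all genes 3076 had such a p-value. The same test without the variance trend and with a replicate block also called 0 members. The groups did not overlap for 3 members, PCK2 higher and PSAT1 and MTHFD2 lower, where 48.1% of all genes were so placed (24.3% higher and 23.8% lower), and the members' median log2 fold change was -0.02. Of the few genes called, 3 were higher and 3 lower as deposited, and 63.6% were higher with quantile normalisation and 37.5% with B-cell scaling.

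PCK2 had 938.7 and 938.8 normalised counts with EPZ-6438 and 868.5 and 828.8 in DMSO, a log2 fold change of 0.15 ± 0.07 (limma adjusted p = 0.355). MTHFD2 had 5307 and 5455 against 6019 and 5715, a log2 fold change of -0.12 ± 0.04 (limma adjusted p = 0.197). PSAT1 had 5073 and 4904 against 5208 and 5338, at -0.08 ± 0.04 (limma adjusted p = 0.332). These separations were small beside those with MS8815N, and the other 7 members overlapped with DMSO. ASNS, with 4159 and 3873 against 3968 and 4266, had a 95% interval of -0.16 to 0.09, and PHGDH one of -0.20 to 0.27. The interval was -0.26 to 0.14 for PSPH, -0.16 to 0.19 for SHMT1, -0.09 to 0.07 for SHMT2 and -0.14 to 0.09 for MTHFD1L. ALDH1L2 was at a few reads again, with 6.70 and 9.08 against 0 and 12.3. Limma called none of 25 stress-response genes (6 at an unadjusted p under 0.05), none of 20 folate genes (11) and none of 23 amino acid synthesis genes (4). Such a p-value was seen for 3076 of all 18320 genes, and the folate list's median log2 fold change was -0.12.

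The third comparison, MS8815 against DMSO, gave a mixed picture. Of the members 2 rose (ALDH1L2 and PCK2), 5 fell (SHMT1, PSPH, MTHFD1L, MTHFD2 and SHMT2) and 3 were not called, where limma called 46.9% of all 18744 genes, 24.5% higher and 22.4% lower. The groups did not overlap for 8 members, 2 higher and 6 lower, where 73.7% of all genes were so placed (37.9% higher and 35.9% lower). As given above, B-cell markers fell and adherent-cell markers rose in these libraries, which were also the shallowest, and the part of either in the results below was not tested.

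SHMT1 had 758 and 735 normalised counts with MS8815 against 1282 and 1251 in DMSO, a log2 fold change of -0.76 ± 0.07 (limma adjusted p = 0.000551). SHMT2 had 7552 and 7478 against 8548 and 8113, at -0.15 ± 0.04 (limma adjusted p = 0.0247). The cytosolic gene therefore fell by more than the mitochondrial one on this scale. MTHFD2 had 2861 and 3067 against 3996 and 3818, at -0.40 ± 0.06 (limma adjusted p = 0.0021), and MTHFD1L had 1685 and 1845 against 2320.4 and 2347, at -0.40 ± 0.07 (limma adjusted p = 0.0036). Neither gene's groups overlapped.

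PSPH had 774 and 847 normalised counts with MS8815 against 1002 and 1191, a log2 fold change of -0.43 ± 0.11 (limma adjusted p = 0.0238). PSAT1 had 3326 and 3246 against 3535 and 3646, at -0.13 ± 0.05 (limma adjusted p = 0.0641). PHGDH had 1244 and 749.6 against 1445 and 1238, so 1 MS8815 library lay within the DMSO range and the other well below it. The replicates of PHGDH differed 1.66-fold with MS8815 and 1.04- to 1.17-fold in the other groups, and its log2 fold change of -0.47 ± 0.23 was not called (limma adjusted p = 0.152). Without MS8815 replicate 1, the library within the DMSO range, it was -0.83, so the size of the fall rests on which MS8815 library is kept.

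ASNS had 2963 and 2416 normalised counts with MS8815 against 2782 and 3009 in DMSO, with overlapping groups and a log2 fold change of -0.11 ± 0.10 (limma adjusted p = 0.431). PCK2 had 918 and 776 against 594 and 570.4, a log2 fold change of 0.54 ± 0.11 (limma adjusted p = 0.0115). PCK2 was the one well-expressed member above both DMSO libraries. ALDH1L2 had 73.5 and 64.5 against 0 and 7.76. Over a whole library 1 read was worth 1.42 to 1.65 with MS8815 and 0.65 to 0.66 in DMSO, a rough guide for any single gene. Both MS8815 libraries were far above both DMSO libraries, and limma called it (adjusted p = 0.0033). The fitted log2 fold change of 4.56 ± 1.02 depends on the count added before the logarithm and was 6.28 with 0.1 in place of 1; without the DMSO library at 0 it was 2.99.

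Fewer members were called with MS8815 when any library was left out, each such fit leaving 1 sample in a group and 1 residual degree of freedom. In place of 7 members, 2 were called without DMSO replicate 1. The count was 3 when DMSO replicate 2 was left out and 5 when either MS8815 library was. PCK2 lost its call when either DMSO library was left out, and ALDH1L2 lost its call without MS8815 replicate 1. SHMT1 was called in each of these fits, and its log2 fold change stayed between -0.78 and -0.74.

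The sign of most members with MS8815 depended on the scaling. Quantile normalisation shifted the median of all genes to -0.20 and placed SHMT2 at 0.18 (limma adjusted p = 0.0145), PSAT1 at 0.16 (limma adjusted p = 0.0347) and ASNS at 0.12 (not called). It called 3 members higher and 2 lower, where 3704 of all 18744 genes were called higher and 5257 lower. Of the called genes 41.3% were higher, against 52.3% as deposited. Scaling each library to its B-cell markers shifted the median of all genes to 0.98 and made 98.8% of called genes higher. It called 9 members higher and none lower, where 13271 of all 18744 genes were called higher and 159 lower. On that scale PCK2 at 1.54 was above the median of all genes, while ASNS at 0.90, PSAT1 at 0.88, SHMT2 at 0.86 and SHMT1 at 0.25 were below it. PCK2 was called higher than in DMSO under each of these 3 scalings, ALDH1L2 as deposited and with B-cell scaling but not after quantile normalisation (3.59; limma adjusted p = 0.0587), and SHMT1 was below the median of all genes under each.

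**Figure D3:**
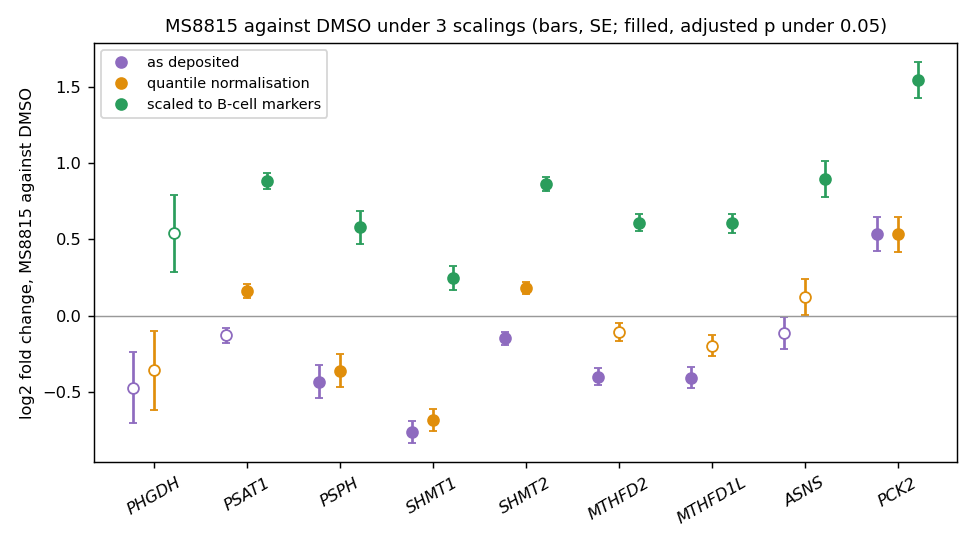
Log2 fold changes of 9 enzyme genes with MS8815 against DMSO (y axis, SE bars) on 3 scales (as deposited, quantile-normalised, and set to B-cell markers), with filled points at a limma adjusted p under 0.05. PCK2 lies above 0 on all 3 scales, and the 8 others lie below 0 as deposited and above 0 when scaled to B-cell markers.

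A ratio of 2 genes within a library does not move with the library's scaling factor. The SHMT2 to SHMT1 count ratio was 9.96 and 10.2 with MS8815 against 6.67 and 6.49 in DMSO of the same table. It was 9.37 and 8.92 with MS8815N against 7.09 and 6.90, and 6.30 and 7.17 with EPZ-6438 against 6.96 and 6.77. The ratio was thus above both DMSO libraries with MS8815N and with MS8815, and it overlapped with DMSO for EPZ-6438. MTHFD1L over MTHFD1 gave 3.49 and 3.77 with MS8815 against 2.84 and 2.69, and 3.25 and 3.36 with MS8815N against 2.88 and 2.73. MTHFD2 over MTHFD1 was 5.92 and 6.26 with MS8815 against 4.89 and 4.37, and 5.31 and 5.70 with MS8815N against 5.03 and 4.49. Each of the ratios with MS8815 or MS8815N was above both DMSO libraries of its table. With EPZ-6438, MTHFD2 over MTHFD1 was 4.62 and 4.24 against 5.07 and 4.54, and MTHFD1L over MTHFD1 2.80 and 2.68 against 2.85 and 2.70. The ratios were not tested, and a ratio does not show which of its genes changed.

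**Figure D4:**
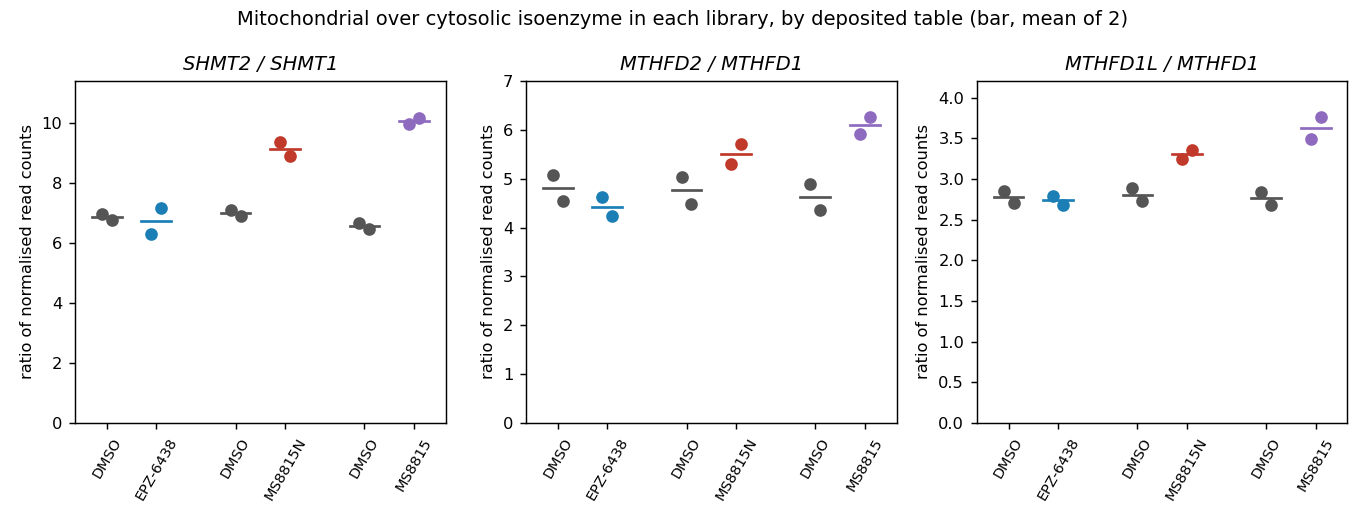
Ratio of normalised counts (y axis, from 0) of a mitochondrial enzyme gene to its cytosolic counterpart in each library (points) with the mean of 2 (bars), shown for each deposited table with its own DMSO values. The SHMT2 to SHMT1 ratio is 8.92 to 10.2 in the MS8815N and MS8815 libraries and 6.30 to 7.17 in the others.

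The pathway lists also moved with MS8815, where limma called 24.5% of all genes higher and 22.4% lower. Of 26 stress-response genes 15 rose and 3 fell, among them ATF3, a stress-induced transcription factor (log2 fold change 5.53), VLDLR (3.94), PPP1R15A, which directs eIF2α dephosphorylation (1.99), DDIT4, an inhibitor of mTORC1 (1.70), CEBPB (1.37) and the cystine transporter SLC7A11 (1.33). The 3 that fell, named after their values were seen, were EIF2S1, the alpha subunit of eIF2 (-0.67), ATF5 (-0.32) and the eIF2α kinase gene EIF2AK1 (-0.29). ATF5 had 3622 and 3857 normalised counts against 4657 and 4701 in DMSO (limma adjusted p = 0.0026). Of 21 folate genes 3 rose and 15 fell, with the purine synthesis enzymes ATIC and GART at -0.82 and -0.61 and the mitochondrial folate carrier SLC25A32 at -0.68. GLDC, of the glycine cleavage system, had 41.3 and 52.6 normalised counts where both DMSO libraries were at 0, and the sideroflexin gene SFXN3 rose by 2.61 on the log2 scale. Of 23 amino acid synthesis genes 10 rose and 8 fell, with glutamine synthetase GLUL at 3.63, pyruvate carboxylase PC at 2.94, GOT2 at -0.99, ALDH18A1 at -0.71 and GLUD1 at -0.48. Of 6 genes on the MYC list MYCN rose (4.39) and MYC (-0.47) and EHMT2 (-0.43) fell. All of these are on the deposited scale, and 98.8% of called genes were higher when libraries were scaled to B-cell markers.

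Since dose and time were matched, the compounds were also compared with each other, as 3 pairs in a fit over all 8 libraries with p-values adjusted over the 17467 shared genes. MS8815N against EPZ-6438 gave 5 members higher (PSAT1, SHMT2, MTHFD2, ASNS and PCK2) and none lower, where 0.172% of all genes were called and 0.166% called higher. On the joined scale PSAT1 had 8798 and 8549 normalised counts with MS8815N and 5397 and 5218 with EPZ-6438, a log2 difference of 0.71 (95% interval 0.62 to 0.79; limma adjusted p = 0.000505). PCK2 had 1812 and 1918 against 994.0 and 994.1, a difference of 0.91 (0.70 to 1.11; limma adjusted p = 0.0115). ASNS had 7257 and 6845 against 4420.4 and 4116, at 0.72 (0.51 to 0.94; limma adjusted p = 0.0338). The groups did not overlap for any of the 3, nor for 5 further members that were higher with MS8815N, where 20.4% of all genes were so placed.

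SHMT2 differed by 0.37 (0.28 to 0.47; limma adjusted p = 0.0143) and MTHFD2 by 0.33 (0.23 to 0.44; limma adjusted p = 0.0476). PHGDH, at 3018 and 3135 against 1865 and 2178, differed by 0.61 with a wide interval of 0.14 to 1.08 and was not called (limma adjusted p = 0.664). That interval rests on a spread shared by all groups of the fit, including the MS8815 libraries, where PHGDH had 1830 and 1103. Its SE was 0.21 here, and 0.08 for MS8815N and 0.10 for EPZ-6438 against DMSO. MTHFD1L differed by 0.26 (0.13 to 0.39; limma adjusted p = 0.277). For PSPH the interval was -0.13 to 0.27 and for SHMT1 -0.21 to 0.13, which bounds a difference without showing that the compounds act alike there. ALDH1L2 had 7.83 and 6.25 against 5.04 and 6.83, too few reads to bound a difference closely (-2.02 to 2.46). Of 25 stress-response genes 4 were higher with MS8815N, where 0.166% of all genes were called higher. They were ATF5 by 1.01, SLC7A5 by 0.38, EIF4EBP1 by 0.34 and SLC3A2 by 0.33. Leaving out EPZ-6438 replicate 1, EPZ-6438 replicate 2 or MS8815N replicate 1 left 1 member called, PSAT1, and leaving out MS8815N replicate 2 left 2, while PCK2 stayed at 0.87 to 0.95 and ASNS at 0.67 to 0.78. Without the variance trend limma called 0 members in this pair, and with it 7 had an unadjusted p under 0.05, where 1070 of all 17467 genes did.

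Against its control analog, MS8815 gave 9 members lower and 1 higher (ALDH1L2), where limma called 50.6% of all genes, 24.2% higher and 26.3% lower. PHGDH differed by -1.11 (95% interval -1.59 to -0.64), ASNS by -0.80 (-1.01 to -0.59), PSAT1 by -0.76 (-0.84 to -0.67), SHMT1 by -0.74 (-0.91 to -0.56) and PCK2 by -0.52 (-0.72 to -0.31). MTHFD1L differed by -0.64 (-0.77 to -0.51), MTHFD2 by -0.61 (-0.71 to -0.50), SHMT2 by -0.51 (-0.60 to -0.41) and PSPH by -0.44 (-0.64 to -0.23). ALDH1L2 had 88.1 and 77.3 normalised counts against 7.83 and 6.25, a difference of 3.38 (1.14 to 5.63). ATF5 differed by -1.28 on the same joined scale. With libraries scaled to B-cell markers 7 members were called higher and none lower in this pair. On that scale 12969 of all 17467 genes were called higher and 244 lower. PHGDH alone of the 9 stayed below 0 at -0.19, so the direction of the other 8 depends on the scaling as in the comparison with DMSO. Of all called genes in this pair 47.9% were higher on the joined scale, 37.1% after quantile normalisation and 98.2% with B-cell scaling.

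Against EPZ-6438, MS8815 gave 5 members lower and 2 higher, where 50.6% of all genes were called (26.3% lower and 24.2% higher). PCK2 was higher by 0.39 (0.18 to 0.60; limma adjusted p = 0.0066), and so was ALDH1L2, at 88.1 and 77.3 against 5.04 and 6.83 (3.60, 1.36 to 5.84; limma adjusted p = 0.0146). The 5 lower were SHMT1 at -0.78 (-0.95 to -0.61), MTHFD1L at -0.38 (-0.51 to -0.24), PSPH at -0.37 (-0.57 to -0.17), MTHFD2 at -0.27 (-0.38 to -0.17) and SHMT2 at -0.13 (-0.23 to -0.04). PHGDH at -0.50 (-0.98 to -0.03) was not called (limma adjusted p = 0.0736). PSAT1 at -0.05 (-0.13 to 0.04) and ASNS at -0.08 (-0.29 to 0.13) were not called either. The share of called genes that were higher was 47.9% on the joined scale, 37.3% with quantile normalisation and 98.2% with B-cell scaling. These 3 pairs share libraries with each other and, through the joined scale, the DMSO libraries with the comparisons above, so their values are not independent.

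**Figure D5:**
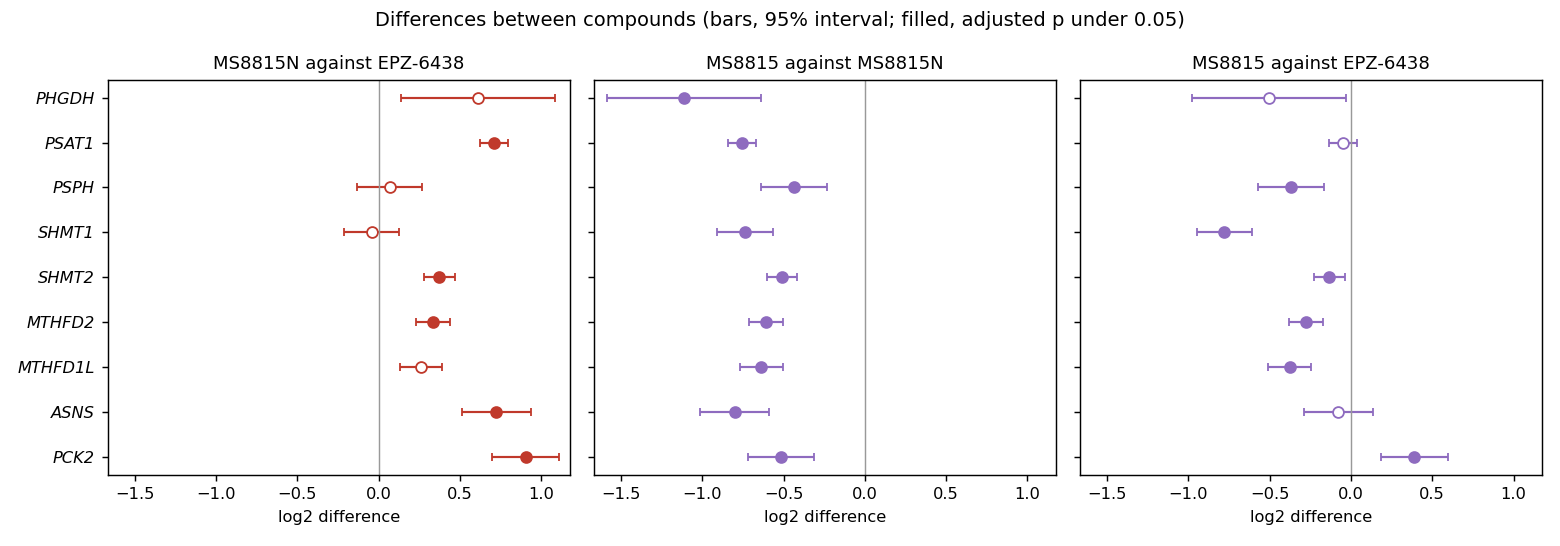
Log2 differences (x axis) between compounds for 9 enzyme genes, with 95% intervals and filled points at a limma adjusted p under 0.05, on the joined scale. PSAT1, SHMT2, MTHFD2, ASNS and PCK2 are filled above 0 for MS8815N against EPZ-6438, and all 9 are filled below 0 for MS8815 against MS8815N.

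Genes were ranked by Pearson correlation with the members' mean profile over the 8 libraries, among 8724 genes of the more abundant part of the tables. CNPY3 had a correlation of 0.955, PYCR1 0.916, EIF1 0.911, CFDP1 0.878 and ACSL3 0.877, as descriptions over libraries that share treatment and depth. PYCR1 had 1715 and 1652 normalised counts with MS8815N, 1381 and 1252 with MS8815, 1235 and 1114 with EPZ-6438 and 1047.5 and 1068 in DMSO. The mean profile is weighted by ALDH1L2, whose log2 values span the widest range. ALDH1L2 correlated negatively with every other member except PCK2, from -0.87 with SHMT1 to -0.20 with ASNS. The profile was -0.37 and -0.05 in the DMSO libraries, where ALDH1L2 had 0 and 9.28 normalised counts. Likeness to the profile is therefore not likeness to each member.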

How the data were processed

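RNA from SUDHL6 cells was sequenced in 2 libraries for each of 4 groups, made with 1 of 2 kits per the labels' protocols, which do not say which kit served which library. STAR 2.4.2 and Salmon, with the build GRCh38, are named in the submitters' processing notes, without their order. The authors deposited 3 tables, 1 per compound with the same 2 DMSO libraries, whose values are on a log2-like scale, from a variance-stabilising transform per the table names. No further file was used.

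The transform was inverted to normalised counts from the lowest value of each table, and the tables were joined through the constants by which their DMSO libraries differ. Levels are these counts. Depths were estimated from the value of 1 read, seen as whole multiples among low values (47.5% to 65.7% of them within a tolerance of 0.02).

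Limma 3.58.1 (R 4.3.3) with a variance trend gave two-sided p-values on the deposited values of each table, and of the joined table for pairs of compounds, adjusted by Benjamini-Hochberg over all genes and called under 0.05. Fold changes, SE and 95% intervals are from log2(normalised count + 1), a scale on which the fold of low genes depends on the added count. The fit was tested on simulated data. Alternatives were a log2 scale, no trend, removal of the lower 50% of genes, quantile normalisation, scaling to B-cell markers, a replicate block, a joined fit, a pseudocount of 0.1 and leaving out each library.

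Named are all 10 members in each comparison, up to 6 called genes with the smallest p from each pathway list, the 5 genes most like the members' mean profile, and genes named as background to these. A few genes that this rule picks are not reported here. The members and lists were chosen with earlier results of these data known. List genes were matched by symbol, or by an older symbol that is no other gene's. Positions and lengths are from GENCODE 29 and promoter sequences from RefSeq (GRCh38.p14).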

Additional observations from a re-analysis of the deposited data

How the results depend on the processing

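With MS8815N against DMSO 98 genes were called with the settings of the report, 252 without the variance trend, 389 when the less abundant 50% of genes were removed and 65 in the joined fit over 8 libraries, while 4 to 7 members were called under these settings. With EPZ-6438 the 6 genes called became 25 on log2(normalised count + 1), 169 without the trend, 283 with the lower 50% removed, 11 after quantile normalisation and 0 in the joined fit, and no member was called. With MS8815 against DMSO 8782 genes became 13430 with libraries scaled to B-cell markers, and against EPZ-6438 8831 became 13381; removing the lower 50% gave 5699 against EPZ-6438 and 5738 in place of 8832 against MS8815N. For MS8815N against EPZ-6438, 30 genes and 5 members became 4 and 0 without the trend, 17 and 3 after quantile normalisation, 47 and 5 with B-cell scaling, and 73 and 6 in a joined fit without the MS8815 libraries, which was added after seeing the data. ALDH1L2 is in the removed part of the tables and has no value there.

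The replicate numbers were also used as a block. The correlation of same-numbered deviations was 0.285 for DMSO with MS8815N and -0.02 to 0.05 for the 5 other pairs of groups, so the numbers are not taken to pair the libraries. With the replicate block 353 genes and 7 members were called with MS8815N against DMSO, 10 genes and 0 members with EPZ-6438, and 8 members with MS8815.

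Leaving out 1 library at a time leaves 1 sample in a group, assumed to vary like the others. The range of genes called was then 0 to 6 with MS8815N, 0 to 0 with EPZ-6438 and 3583 to 8932 with MS8815 against DMSO, and 8 to 11 for MS8815N against EPZ-6438. Members called ranged from 0 to 1, 0 to 0, 2 to 5 and 1 to 2 in the same order. Signs turned within these log2 ranges: with EPZ-6438, ALDH1L2 -0.60 to 3.14, ASNS -0.0882 to 0.0162, MTHFD1L -0.0787 to 0.0229, PHGDH -0.0817 to 0.15, PSPH -0.18 to 0.0578, SHMT1 -0.0828 to 0.12 and SHMT2 -0.0562 to 0.028. With MS8815N they were ALDH1L2 -0.36 to 3.0 and PSPH -0.12 to 0.13. ASNS ran from -0.26 to 0.0341 with MS8815 against DMSO and -0.22 to 0.0702 against EPZ-6438, and SHMT1 from -0.14 to 0.0563 for MS8815N against EPZ-6438. None of the members in the last 3 sentences was called with all libraries.

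Quantile normalisation turned the sign of SHMT2 (0.18), PSAT1 (0.16) and ASNS (0.12) with MS8815 against DMSO, of PSAT1 (0.19), SHMT2 (0.13) and ASNS (0.11) with MS8815 against EPZ-6438, of SHMT2 (0.0276), MTHFD1L (0.0233) and ASNS (0.0136) with EPZ-6438 and of SHMT1 with MS8815N (0.00846). Scaling to B-cell markers turned SHMT1 with MS8815N against DMSO (0.0234) and against EPZ-6438 (0.0205), SHMT1 with EPZ-6438 (-0.0105), and 8 members in each comparison of MS8815. Against DMSO these were PHGDH 0.54, PSAT1 0.88, PSPH 0.58, SHMT1 0.25, SHMT2 0.86, MTHFD2 0.61, MTHFD1L 0.61 and ASNS 0.90. Against EPZ-6438 they were PHGDH 0.48, PSAT1 0.94, PSPH 0.62, SHMT1 0.21, SHMT2 0.85, MTHFD2 0.71, MTHFD1L 0.61 and ASNS 0.91. Against MS8815N they were PSAT1 0.17, PSPH 0.49, SHMT1 0.19, SHMT2 0.41, MTHFD2 0.31, MTHFD1L 0.29, ASNS 0.12 and PCK2 0.41. B-cell scaling uses a single factor per library and sets the markers' median deviation equal by construction, so individual markers can still differ. Why the markers fell with MS8815 was not tested. The MS8815 libraries have the fewest reads, so low genes such as ALDH1L2 are least precise there.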
